A study of Caenorhabditis elegans with 22 samples.

Results

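The sperm genes described here are 52 of the 42048 genes in the count table of an ethanol time course in the nematode Caenorhabditis elegans. They were taken by name. The set holds every gene of the classes spe (spermatogenesis defective, 21 genes), ssp (sperm-specific family, class P, 12 genes), nspd (nematode-specific peptide family, group D, 10 genes), ssq (sperm-specific family, class Q, 4 genes), smz (2 genes) and fer (fertilization defective, 1 gene), together with the 2 phosphatase genes gsp-3 and gsp-4. The genes of the major sperm protein itself (msp) do not belong to the set. Of the 52 genes, 48 had enough reads to be tested. The genes nspd-8, ssp-9 and ssp-11 were at 0 counts in all 22 libraries, and spe-29 had 35 counts over all of them.

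Polyadenylated RNA was sequenced from whole worms of the laboratory strain N2, about 1500 to a sample, which had grown in synchrony at 20 °C on plates with Escherichia coli OP50. Worms were washed off the bacteria and kept in S-basal, a salt buffer, holding 5% (v/v) ethanol for 1, 4 or 20 h (3 libraries at each time) or 0% ethanol for 1, 4 or 20 h (controls, 3 libraries at each time). Another 4 libraries came from time zero. All groups were N2 worms grown on the same bacteria, so a difference from time zero covers both the hours in buffer and the loss of the bacteria. The stage of the worms is given as L3 in the sample labels and as L4 in the title of the series. At time zero the yolk gene vit-2, which adult hermaphrodites express, averaged 15740 ± 2990 CPM (SD, n = 4), and 21 oocyte and eggshell genes summed to between 5370 and 13570 CPM. CPM (counts scaled to a common library size) is a relative level of a gene in its library. Library sizes were first multiplied by TMM scaling factors, which ran from 0.7824 to 1.178.

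In hermaphrodites of this species, germ cells first develop as sperm, during the last larval stage, and then switch to oocytes. Sperm genes are transcribed in spermatocytes before the meiotic divisions. The finished spermatid and the crawling sperm make no new RNA, and the sperm are stored in the spermatheca until fertilization uses them.

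Sperm gene transcripts fell with time in buffer, and fell less in ethanol. Summed over the set, ethanol libraries held 707.6, 742.3 and 755.0 CPM (lowest, median and highest) at 20 h, against 173.7, 201.2 and 208.2 CPM in the controls. At 4 h the sums were 1284, 1308 and 1331 CPM in ethanol, against 820.7, 831.8 and 834.5 CPM in controls. The libraries of ethanol and control did not overlap at either time. At 1 h they did, with 1356, 1393 and 1589 CPM in ethanol and 1566, 1596 and 1673 CPM in controls. The 4 time zero libraries ran between 1541 and 1750 CPM. As a share of the time zero mean, the sum stood at 86.4%, 78.1% and 43.9% after 1, 4 and 20 h of ethanol, and at 96.3%, 49.5% and 11.6% after the same hours in control buffer. In whole worms, fewer sperm cells and less RNA per cell cannot be told apart.

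**Figure D1:**
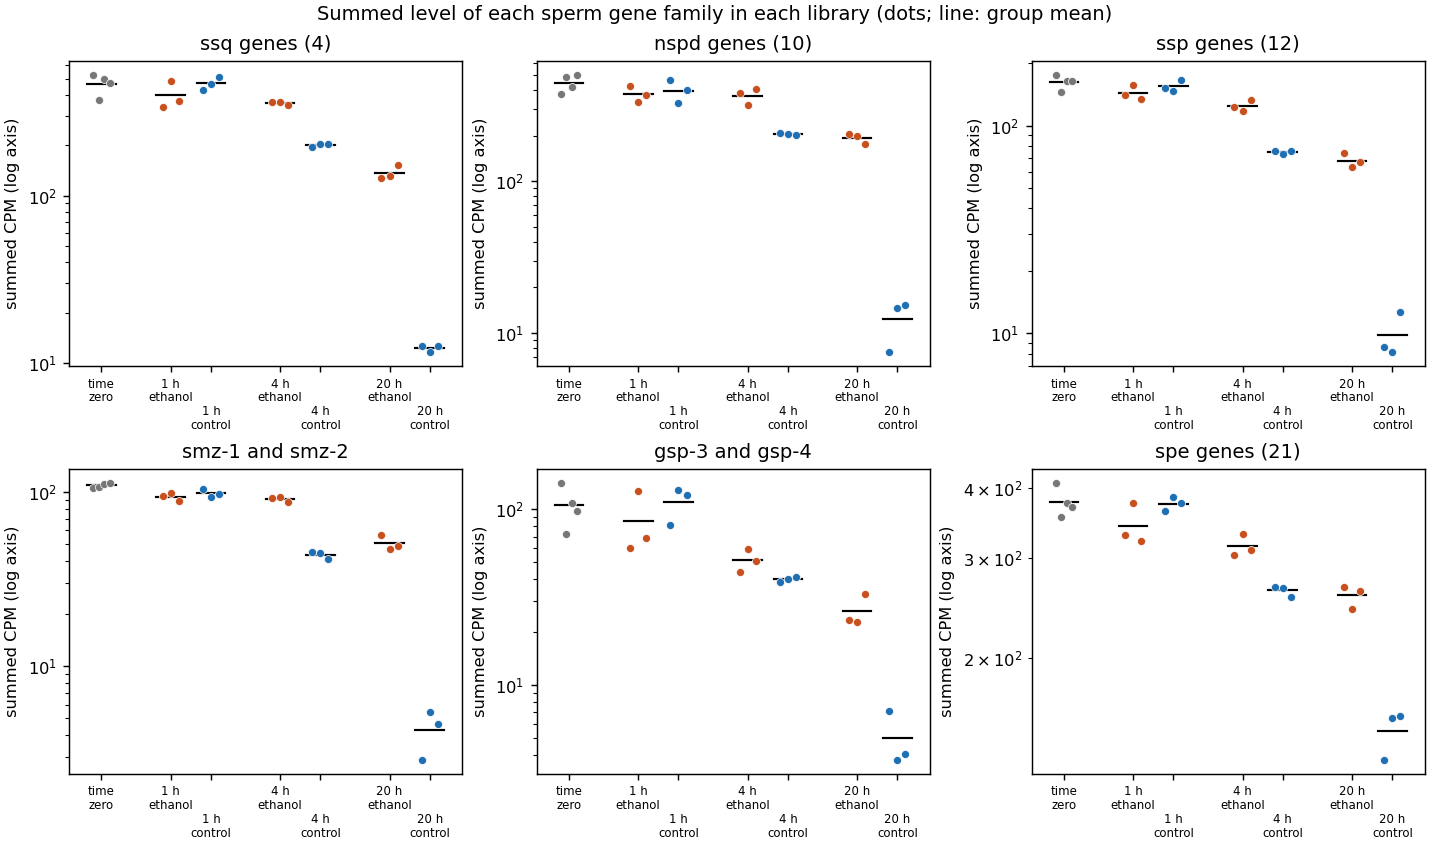
Summed CPM (log axis) of the ssq, nspd, ssp, smz, gsp and spe genes in each library, by group; each dot is 1 library and each line a group mean, with ethanol in orange, controls in blue and time zero in grey. At 20 h the ethanol libraries of all 6 families lie above all controls, and for the nspd genes the gap is from 176.0 to 204.3 CPM against 7.49 to 15.3 CPM.

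Library totals ran from 10908205 to 15302047 counts, and 15310 genes passed the filter on low counts. Tests were edgeR quasi-likelihood F-tests fitted on all of these genes, and each adjusted p below is Benjamini-Hochberg adjusted over them. Fold changes are on the log2 scale with their SE, as the group named first over the group named second. Within groups, libraries spread along an axis that held 41.4% of the within-group variance, with 6 of them more than 10 above its zero and 8 more than 10 below (lowest control replicate 1 at 1 h, -41.57). The 6 high-scoring libraries were time zero replicate 1, ethanol replicate 2 and control replicate 2 at 1 h, ethanol replicate 2 at 4 h, and ethanol replicate 3 and control replicate 1 at 20 h. Oocyte and germ cell genes were high in these libraries. The summed sperm signal differed by at most 1.2-fold (control at 20 h) between libraries of 1 group, while single families differed by more. The range was 2.12-fold for the gsp genes (ethanol at 1 h), 2.05-fold for nspd (control at 20 h) and 4.06-fold for fer-1 (time zero). Along the axis 18 of 48 members rose with the score, among them 0 of 9 nspd and 4 of 4 ssq genes.

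At time zero the most abundant transcripts per length belonged to the small peptide and class P and Q families. Per kilobase of exon, with lengths from the WBcel235 annotation, nspd-2 averaged 489 CPM, nspd-1 425 CPM, ssq-4 138 CPM and ssp-10 128 CPM. The smz, gsp-3 and gsp-4 transcripts stood between 44.9 and 51.5 CPM per kilobase. Genes known from mutants with defective sperm were mostly far lower, for example spe-11 with 34.7 CPM, spe-6 with 9.89 CPM and spe-9 with 1.01 CPM per kilobase, which was the lowest of the 48. The gene spe-39, at 56.3 CPM per kilobase, was an exception.

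After 1 h, no sperm gene passed the test of ethanol against control (0 of 48 higher and 0 lower in edgeR, where 4.94% of all genes tested were higher and 1.72% lower). At an unadjusted p under 0.05 in edgeR the number was also 0, against 2404 of all 15310 genes tested. DESeq2 called 0 members, where it called 1119 of 15285 genes. In DESeq2 1 member had an unadjusted p under 0.05, and the number of all genes under that p was not counted. The median log2 fold change over the set was -0.07, against -0.01 over all genes tested. For smz-1, a PDZ domain protein of sperm, the ethanol libraries had 50.5, 53.9 and 48.1 CPM, against 56.1, 50.8 and 50.1 CPM in controls. For the transcription factor spe-44 they had 12.4, 24.2 and 12.7 CPM in ethanol and 15.8, 24.8 and 19.5 CPM in controls. The groups of both genes overlapped. Without the 6 high-scoring libraries, 3 members were called lower in ethanol, where 1550 of 15387 genes tested were called in either direction. Control at 1 h against time zero gave no call either (0 higher and 0 lower of 48, against 5.33% and 5.49% of all genes). There 3 members had an unadjusted p under 0.05 in edgeR, against 3236 of all 15310 genes tested, and 6 members had one in DESeq2. The number of all genes under that p was not counted in DESeq2, which called 0 members and 1833 of 15285 genes.

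After 4 h, 27 of 48 sperm genes were higher in ethanol than in control buffer and 0 were lower, where 17.1% of all genes tested were higher and 13.4% lower. The median log2 fold change was 0.77 over the set and 0.00 over all genes. All 9 tested nspd genes, all 4 ssq genes and both smz genes were higher than in control buffer. Of the ssp genes 5 of 10 were higher and of the spe genes 7 of 20, while gsp-3, gsp-4 and fer-1 did not pass the threshold.

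After 20 h, 42 of 48 were higher in ethanol and 0 lower, where 25.0% of all genes tested were higher and 28.1% lower. The median log2 fold change was 3.28 over the set, against -0.06 over all genes. All tested members of the nspd, ssq, smz and gsp families were higher than in control buffer, with 9 of 10 ssp and 16 of 20 spe genes. The libraries did not overlap for 43 members, all higher in ethanol, and for 0 on the lower side, against 27.1% and 28.4% of all genes. The 6 members that did not pass were spe-5, spe-15, spe-38, spe-47, fer-1 and ssp-37. In the WBcel235 annotation 10 of the 52 genes overlap an exon of another gene. They are spe-5, spe-9, spe-12, spe-26, spe-27, spe-29, spe-38, spe-47, fer-1 and ssq-4. For spe-27 and spe-38 a protein-coding gene overlaps on the same strand. Of the 39 tested members without an overlap, 24 were higher at 4 h and 37 at 20 h.

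The ethanol effect itself grew between times. The difference between the 20 h and the 4 h effect passed the test in 38 members, all with the larger effect at 20 h, against 15.4% of all genes in that direction and 16.9% in the other. From 1 h to 4 h it was called larger in 16 members and smaller in 0, against 6.74% and 6.40% of all genes. That count was 8 without ethanol replicate 3 at 1 h or at 4 h or without control replicate 2 or 3 at 4 h, 9 without control replicate 3 at 1 h, and 10 without control replicate 1 at 4 h. From 1 h to 20 h it was called larger in 40 members and smaller in 0, against 15.5% and 20.2% of all genes.

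**Figure D2:**
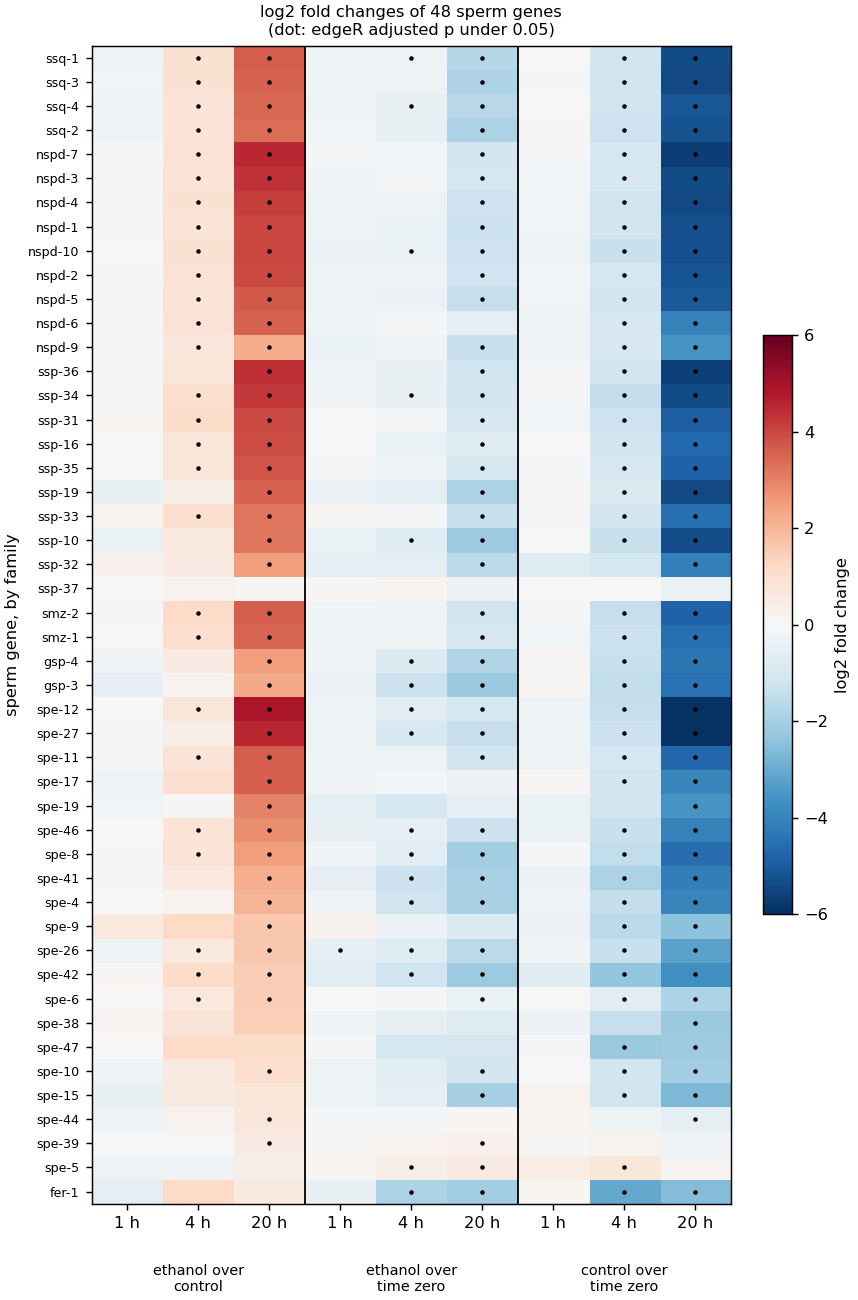
Log2 fold changes (colour) of the 48 tested sperm genes, 1 row each and grouped by family, for ethanol over control, ethanol over time zero and control over time zero at 1, 4 and 20 h; a dot marks an edgeR adjusted p under 0.05. The 20 h column of ethanol over control runs from 0.05 (ssp-37) to 4.88 (spe-12, with few reads in controls), and the 20 h column of control over time zero from -5.94 (spe-12) to 0.18 (spe-5).

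Set against time zero, most sperm genes were called lower at 4 and 20 h in control buffer and at 20 h in ethanol. At 4 h in ethanol a minority were. At 4 h, 41 of 48 members were lower in control buffer than at time zero and 1 was higher, where 23.3% of all genes were lower and 22.9% higher. At 20 h, 45 were lower and 0 higher, where 24.4% of all genes were lower and 30.8% higher, and the median log2 fold change of the set was -4.52. Ethanol libraries, set against the same 4 time zero libraries, had 16 members lower and 1 higher at 4 h, where 19.5% of all genes were lower and 19.7% higher. At 20 h they had 38 lower and 2 higher, where 26.6% of all genes were lower and 26.5% higher, with a median of -1.23. At 1 h, 1 member, spe-26, was lower in ethanol than at time zero (0 higher, against 3.47% and 7.13% of all genes), a call lost without time zero replicate 2 or 4 or ethanol replicate 1 or 3 of 1 h. The 16 lower genes at 4 h were 10 without ethanol replicate 1 or replicate 2 of that time. The higher one, spe-5, was lost without time zero replicate 1 or 3 or any of the ethanol replicates. Of the 2 higher at 20 h, spe-5 and spe-39, 1 was left with any single library left out.

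The median member stood at 42.5% of its time zero mean after 20 h in ethanol, against 4.28% in control buffer. In ethanol 0 of 48 members were under 10% of time zero, 36 were from 10% to under 50%, and 12 were at 50% or more. In controls 36 were under 10%, 8 were from 10% to under 50%, and 4 were at 50% or more. The group means followed the order ethanol above control and below time zero in 45 of 48 members at 20 h. The others were spe-5, spe-39 and spe-44, for which ethanol stood above time zero. These percentages share the time zero libraries and are given as levels, not as independent results.

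**Figure D3:**
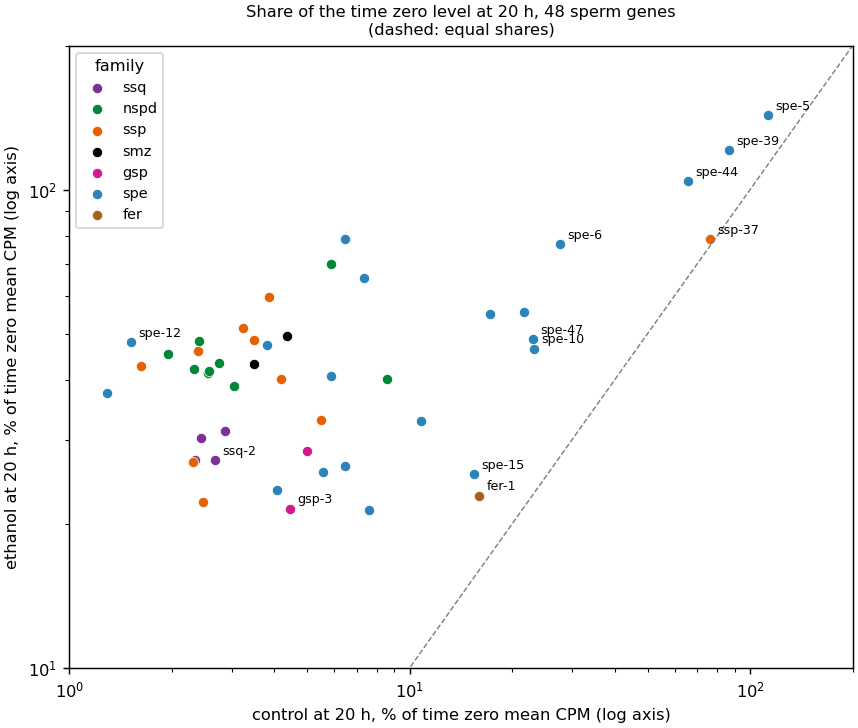
Mean CPM at 20 h as a percentage of the time zero mean for 48 sperm genes, ethanol on the vertical and control on the horizontal axis (both log), coloured by family; the dashed line marks equal percentages. All 48 points lie above the line, with ssp-37 nearly on it at 78.7% in ethanol and 76.1% in controls.

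Among regulators, spe-44, a transcription factor that turns on sperm genes in spermatocytes, had smaller differences than most of the set. It had 19.1, 16 and 20.6 CPM in the ethanol libraries at 20 h, against 11.3, 11.3 and 12.6 CPM in controls and 22.1, 16.4, 18 and 14.8 CPM at time zero. Ethanol libraries lay wholly above the controls at 20 h and within the range of time zero. The log2 fold change of ethanol over control was 0.66 ± 0.23, adjusted p = 0.0216, and it passed the threshold no longer without control replicate 1 or control replicate 2 (adjusted p = 0.0529 and 0.0533). At 4 h it was 0.19 ± 0.23, adjusted p = 0.611. Control over time zero at 20 h was -0.60 ± 0.22, adjusted p = 0.0256, with the controls below all time zero libraries, a call lost without time zero replicate 1, control replicate 1 or control replicate 2 (adjusted p = 0.0722, 0.0586 and 0.0681).

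The gene smz-1 lies next to spe-44 in the WBcel235 annotation, and its transcripts changed more. It had 51.1, 47.8 and 47.5 CPM in ethanol at 4 h and 31.9, 26.9 and 29.1 CPM at 20 h. The controls had 26.1, 25.9 and 21.9 CPM at 4 h and 1.6, 3.32 and 2.84 CPM at 20 h, and the time zero libraries 58.2, 57.8, 60.5 and 60.4 CPM. Ethanol libraries lay above all controls at both times and below all time zero libraries. Ethanol over control was 0.99 ± 0.16, adjusted p = 6.47e-05 at 4 h and 3.49 ± 0.18, adjusted p = 5.72e-12 at 20 h, an 11.3-fold difference. Its relative smz-2 had 24.8, 19.9 and 19.7 CPM in ethanol at 20 h, against 1.3, 2.12 and 1.78 CPM in controls (3.62 ± 0.17, adjusted p = 8.07e-13).

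The sperm phosphatases gsp-3 and gsp-4, of the PP1 type, are needed for chromosome segregation in sperm meiosis and for sperm motility. They are near-identical, so reads may be divided between them. Neither passed at 4 h, where gsp-3 had 18.9, 25.4 and 22.3 CPM in ethanol and 19.2, 18.6 and 19.4 CPM in controls, and the groups overlapped. At 20 h, gsp-3 had 10.3, 8.9 and 15.3 CPM in ethanol, against 4.05, 1.62 and 1.46 CPM in controls (2.27 ± 0.40, adjusted p = 6.11e-05). For gsp-4 the 20 h libraries had 13, 13.8 and 17.4 CPM in ethanol, against 3.06, 2.12 and 2.6 CPM in controls (2.51 ± 0.27, adjusted p = 1.55e-07). Both pairs of groups were separate at 20 h. In ethanol at 4 h, gsp-3 was lower than at time zero (-1.27 ± 0.33, adjusted p = 0.00448). The same comparison of smz-1 did not pass (-0.28 ± 0.15, adjusted p = 0.141).

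The nspd genes code for short nematode-specific peptides found in sperm. The most abundant of them, nspd-2, had 96.1, 71.2 and 104.1 CPM in ethanol at 4 h, against 51, 48.4 and 49.2 CPM in controls. At 20 h it had 48.5, 45.9 and 41.1 CPM in ethanol, against 1.6, 3.67 and 3.33 CPM in controls, with 86.5, 115.9, 93.5 and 120.8 CPM at time zero. Both times showed separate groups (0.87 ± 0.22, adjusted p = 0.00436 at 4 h and 3.97 ± 0.26, adjusted p = 9.93e-11 at 20 h).

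Over the 9 tested nspd genes, log2 fold changes of ethanol over control ran from 0.70 to 0.93 at 4 h and from 2.21 (nspd-9) to 4.51 (nspd-7) at 20 h. The highest, nspd-7, had 24.9, 26.2 and 19.97 CPM in ethanol, against 0.687, 1.55 and 0.811 CPM in controls (4.51 ± 0.25, adjusted p = 1.22e-11). Next came nspd-3 (4.33 ± 0.28, adjusted p = 9.35e-11) and nspd-4 (4.16 ± 0.31, adjusted p = 7.07e-10). Control over time zero at 20 h ran from -5.65 to -3.53 in the family. Members of this family are alike in sequence, so reads may be divided among them and their values are not independent.

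The 4 ssq genes changed by like amounts. The most abundant, ssq-4, had 49.4, 49.1 and 56.4 CPM in ethanol at 20 h, against 4.66, 4.8 and 4.71 CPM in controls and 183.7, 130.1, 178.2 and 168.2 CPM at time zero. The groups were apart by a wide margin (3.45 ± 0.16, adjusted p = 1.35e-12). For ssq-2 the 20 h values were 34.4, 35 and 46.4 CPM in ethanol and 4.12, 2.83 and 4.46 CPM in controls (3.34 ± 0.25, adjusted p = 5.75e-10). At 4 h the 4 genes ran from 0.77 to 0.90 in log2 fold change, and at 20 h from 3.34 to 3.62. As a group they kept less of the time zero level in ethanol than the nspd genes did (29.4% and 43.3% of the summed CPM at 20 h), a difference that was not tested.

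The ssp genes code for small proteins with a domain like that of the major sperm protein. At 4 h, ssp-31 had 19.7, 14.7 and 17.5 CPM in ethanol, against 7.58, 8.24 and 8.36 CPM in controls (1.10 ± 0.24, adjusted p = 0.00137), and ssp-33, with 0.97 ± 0.24, adjusted p = 0.00454, was higher than in controls by a like amount. At 20 h, ssp-34 had 14.9, 11.6 and 15 CPM in ethanol, against 0.611, 0.495 and 1.05 CPM in controls (4.26 ± 0.25, adjusted p = 2.16e-11), and ssp-35 had 17.3, 12.1 and 13 CPM, against 0.916, 0.848 and 1.3 CPM (3.79 ± 0.24, adjusted p = 5.65e-11). All these groups were separate. The most abundant member, ssp-10, which neighbours ssq-1, missed the threshold at 4 h (0.56 ± 0.22, adjusted p = 0.057) and passed at 20 h (3.17 ± 0.28, adjusted p = 7.23e-09).

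The gene ssp-37 gave other values than the rest of its family. It had 4.44, 6.52 and 5.12 CPM in ethanol at 20 h, against 5.12, 4.03 and 6.41 CPM in controls and 8.47, 5.31, 6.21 and 7.27 CPM at time zero. All 3 groups overlapped, and no comparison of this gene passed. It was named after its values were seen.

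Several spe genes act in building the sperm cell. The presenilin spe-4, which sits in the membranous organelles of sperm, had 4.31, 5.29 and 3.91 CPM in ethanol at 20 h, against 0.305, 1.06 and 1.95 CPM in controls (2.03 ± 0.33, adjusted p = 2.3e-05). At 4 h it had 7.7, 7.09 and 7.27 CPM in ethanol and 7.58, 5.76 and 5.97 CPM in controls, with overlap (0.19 ± 0.27, adjusted p = 0.668). Its ethanol level at 4 h was well under that at time zero (-1.21 ± 0.25, adjusted p = 0.000584). The casein kinase spe-6 changed less over the whole course. It had 10.7, 8.67 and 9.55 CPM in ethanol at 20 h and 3.21, 3.75 and 3.49 CPM in controls, with 14, 10.3, 12.6 and 13.3 CPM at time zero (1.47 ± 0.15, adjusted p = 6.1e-08).

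The kelch-type cytoskeletal protein spe-26 and the palmitoyltransferase spe-10 were also higher in ethanol than in controls. At 20 h, spe-26 had 5.94, 5.29 and 6.21 CPM in ethanol, against 2.52, 1.91 and 1.3 CPM in controls (1.60 ± 0.20, adjusted p = 1.31e-06). Its 4 h difference (0.59 ± 0.18, adjusted p = 0.0174) did not pass without control replicate 3, ethanol replicate 2 or ethanol replicate 3 of that time (adjusted p = 0.0862, 0.0749 and 0.0568). For spe-10 the 20 h libraries had 2.35, 2.15 and 1.55 CPM in ethanol, against 1.15, 1.06 and 0.811 CPM in controls (0.99 ± 0.31, adjusted p = 0.0101). Both genes had separate groups at 20 h.

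Among the members, spe-39 and spe-5 also work in other tissues. Neither was called lower than at time zero in any comparison, and the same held for ssp-37 of the sperm-specific class P. The vesicle trafficking gene spe-39, used in many cells, had 140.7, 127.5 and 130.4 CPM in ethanol at 20 h, against 76.5, 102.8 and 105.3 CPM in controls and 103.9, 115.6, 110.8 and 107.2 CPM at time zero. Ethanol was above every control and every time zero library (0.49 ± 0.12, adjusted p = 0.00262 over control), though in a fit of those 2 groups alone the adjusted p was 0.0561. At 4 h its log2 fold change was 0.00, with its sign turned by scaling on library totals. The V-ATPase subunit gene spe-5 had 23.6, 22.9 and 19 CPM in ethanol at 20 h, against 13.8, 18.9 and 19.3 CPM in controls, which did not pass (0.33 ± 0.15, adjusted p = 0.0665), while with library totals as the only scaling it did (adjusted p = 0.0419). It was the 1 member above time zero in control buffer at 4 h (0.68 ± 0.14, adjusted p = 0.000479), and its exons overlap those of ift-20 on the other strand.

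The myosin VI gene spe-15, needed for sharing out organelles at sperm budding, had 13.3, 15.7 and 27.3 CPM in ethanol at 20 h and 17.6, 10.03 and 6.82 CPM in controls. The groups overlapped and the difference did not pass (0.71 ± 0.35, adjusted p = 0.0993). The highest control was replicate 1 and the highest ethanol library replicate 3, which are among the 6 high-scoring libraries. From time zero it fell in control buffer (-2.68 ± 0.36, adjusted p = 1.7e-06).

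Genes of sperm activation act when the round spermatid turns into a crawling cell. The tyrosine kinase spe-8 had 1.63, 1.84 and 2.19 CPM in ethanol at 20 h, against 0.382, 0.353 and 0.243 CPM in controls (2.49 ± 0.40, adjusted p = 2.4e-05). At 4 h it passed narrowly (0.79 ± 0.28, adjusted p = 0.037), with the call lost under a replicate block (adjusted p = 0.0596), without the 6 high-scoring libraries (adjusted p = 0.0694), and without control replicate 1, 2 or 3 or ethanol replicate 2 of that time (adjusted p from 0.0668 to 0.168). Its pathway partners had few reads in the controls. At 20 h, spe-27 had 37 counts over the ethanol libraries and 1 over the controls, a ratio of 32 (95% exact interval of counting error 5.4 to 1298). For spe-19 the 20 h libraries had 0.588, 0.767 and 1.15 CPM in ethanol, against 0, 0.283 and 0 CPM in controls (2.96 ± 0.70, adjusted p = 0.00122). At 4 h its log2 fold change was 0.05, with a sign that turned when the length trend was taken out.

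The ferlin gene fer-1, which acts in the fusion of membranous organelles at activation, followed another course. It had 2, 2.78 and 1.63 CPM in ethanol at 4 h and 1.7, 1.3 and 2.53 CPM at 20 h. In control buffer it had 1.04, 0.755 and 1.05 CPM at 4 h (-3.06 ± 0.61, adjusted p = 0.000441 over time zero) and 2.29, 0.919 and 0.649 CPM at 20 h (-2.62 ± 0.59, adjusted p = 0.000734). The time zero libraries had 15.3, 3.76, 7.65 and 5.57 CPM, a 4.06-fold range, with replicate 1 the highest. Only fer-1 and spe-47, among the 48, had no lower control mean at 20 h than at 4 h. Ethanol and control were separate at 4 h, without passing the threshold (1.17 ± 0.68, adjusted p = 0.222), and overlapped at 20 h (0.53 ± 0.65, adjusted p = 0.518). With a length trend taken out of each library, both passed (adjusted p = 0.0140 at 4 h and 0.00558 at 20 h), and 2 of its overlapping genes are noncoding RNAs on the other strand.

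Proteins of the sperm surface are needed for fertilization itself. The channel gene spe-41 (also trp-3) had 4.57, 3.91 and 4.95 CPM in ethanol at 20 h, against 1.3, 1.13 and 0.487 CPM in controls (2.18 ± 0.38, adjusted p = 5.98e-05). The EGF-repeat protein spe-9 had 0.653, 1.38 and 1.32 CPM in ethanol and 0.535, 0.353 and 0.162 CPM in controls (1.64 ± 0.65, adjusted p = 0.0391). Its call was lost under a replicate block (adjusted p = 0.0603) and without control replicate 2 or 3 or ethanol replicate 2 or 3 (adjusted p from 0.0824 to 0.128). The DC-STAMP-like protein spe-42 had 0.588, 0.537 and 0.806 CPM in ethanol, against 0, 0.283 and 0.406 CPM in controls (1.48 ± 0.52, adjusted p = 0.0214). That call did not hold without the 6 high-scoring libraries (adjusted p = 0.322), without control replicate 1 (0.121) or without ethanol replicate 3 (0.0672). The tetraspan protein spe-38 had 0.457, 0.23 and 0.748 CPM in ethanol and 0, 0.0707 and 0.487 CPM in controls, which overlapped (1.42 ± 0.91, adjusted p = 0.2). Without control replicate 3 its log2 fold change was 3.44 (adjusted p = 0.0298).

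The paternal factor spe-11, a sperm protein that the embryo needs after fertilization, was separate between groups at both times. It had 27.8, 25.2 and 30.1 CPM in ethanol at 4 h, against 15.2, 16.5 and 16.7 CPM in controls (0.77 ± 0.15, adjusted p = 0.000599). At 20 h it had 17.4, 13.9 and 16.9 CPM in ethanol, against 1.76, 1.06 and 1.05 CPM in controls, with 32.1, 35.1, 32.4 and 36 CPM at time zero (3.63 ± 0.19, adjusted p = 5.4e-12, a 12.4-fold difference). The ethanol libraries at 20 h overlapped the controls of 4 h.

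**Figure D4:**
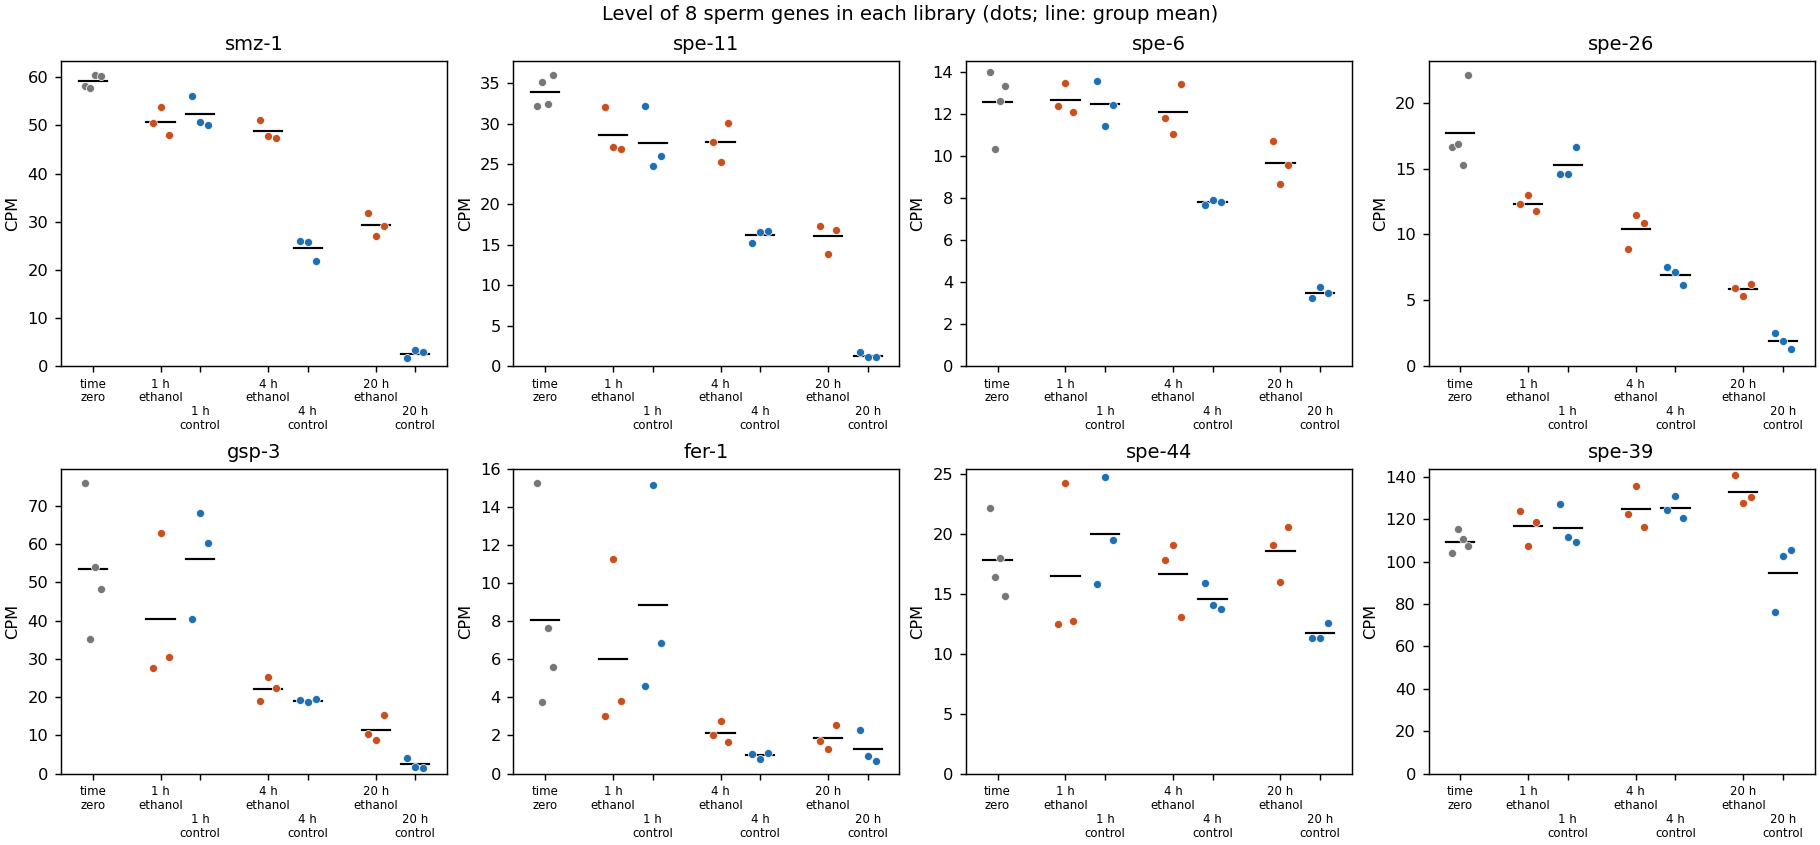
CPM of 8 sperm genes in each library (dots) with group means (lines), in the order time zero, then ethanol and control at 1, 4 and 20 h. The genes smz-1, spe-11, spe-6 and spe-26 step down with time in controls and stand lowest there at 20 h. In ethanol spe-6 is at 96.2% of its time zero mean at 4 h. The genes gsp-3 and fer-1 spread widely at time zero and 1 h. In controls at 20 h spe-44 is lower than at time zero, and in ethanol at 20 h spe-39 is higher than at time zero.

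Shorter members differed more. Across the 48 genes, Spearman's rho of the 20 h log2 fold change of ethanol over control with exon length was -0.716, where all genes with a known length had -0.200. Genes are not independent replicates, and families share length. Within the 20 spe genes, rho was -0.564, and over the other 28 members -0.583. With the time zero level in CPM, rho over the 48 was 0.216. At 4 h the rho with length was -0.174 in the set.

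**Figure D5:**
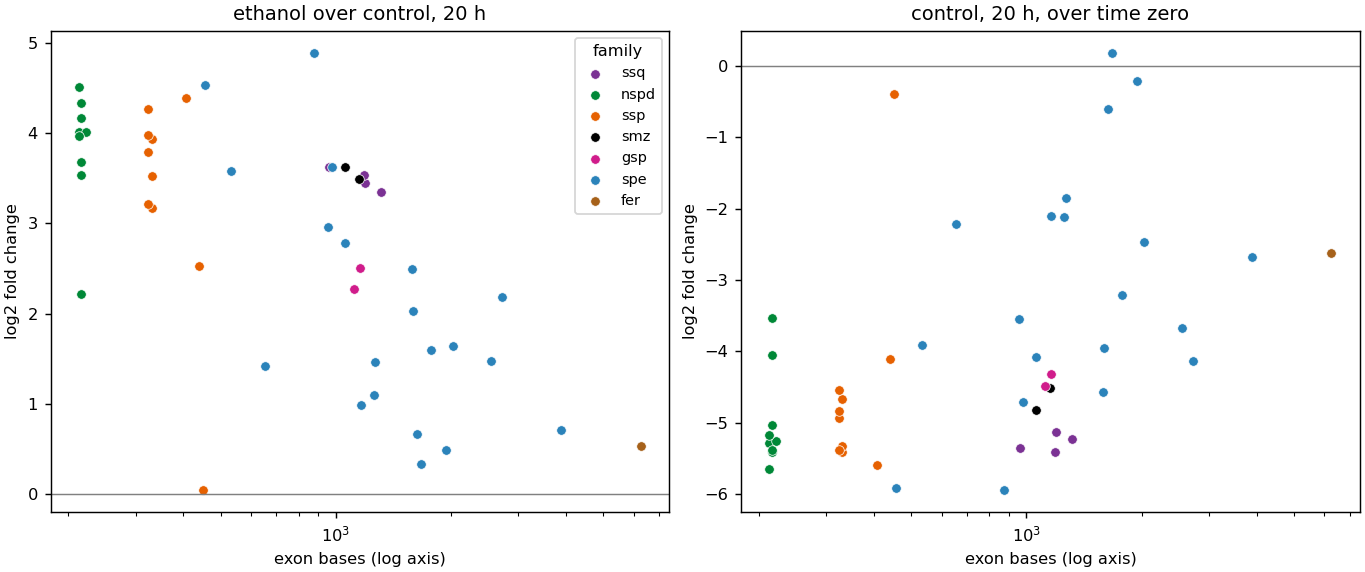
Log2 fold change of each of the 48 sperm genes against its exon length in bases (log axis), for ethanol over control at 20 h (left) and control at 20 h over time zero (right), coloured by family. The nspd genes, from 213 bases, run from 2.21 to 4.51 on the left and from -5.65 to -3.53 on the right, and the longest member, fer-1 with 6267 bases, had 0.53 on the left and -2.62 on the right.

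Other sperm genes were read against the same shares of all genes (17.1% higher at 4 h, and 25.0% higher and 28.1% lower at 20 h). Of 29 tested msp genes, 19 were higher in ethanol than control at 4 h and 29 at 20 h, with a median log2 fold change of 2.93 at 20 h. Their summed level at 20 h was 613.7 to 653.3 CPM in ethanol, against 73.0 to 91.5 CPM in controls. The rule for reads that match several msp genes is not known, so these calls are not taken as independent. Of 17 further sperm genes tested, 11 were higher at 20 h and 2 lower, while their summed level overlapped, with 264.1 to 338.8 CPM in ethanol and 234.8 to 357.1 CPM in controls. The largest part of these sums was wee-1.3, which was not called (means of 80.43 CPM in ethanol and 132.8 CPM in controls). The higher ones included the sperm activation transporter snf-10 (log2 fold change 4.41 ± 0.38), comp-1, which acts in sperm competition (4.14 ± 0.23), and the argonautes of the sperm germ line alg-3 (2.45 ± 0.54) and alg-4 (2.04 ± 0.45). The switch gene fog-3, which sets germ cells on the sperm path, was 1.33 ± 0.25, and fog-1, with the same role, was 0.09 ± 0.25 (adjusted p = 0.787). The 2 lower ones were the protease inhibitor swm-1 (-0.78 ± 0.28), which keeps sperm from early activation in males, and the GATA factor elt-1 (-2.20 ± 0.17), which also acts in the skin.

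Markers of other cells were compared in the same libraries, where 25.0% of all genes tested were higher in ethanol than in controls at 20 h and 28.1% lower. At 20 h, 10 body wall muscle genes summed to 2568 to 2628 CPM in ethanol, against 6854 to 7976 CPM in controls, and 10 of 10 were lower. The 14 intestine genes summed to 13110 to 29430 CPM in ethanol, against 46270 to 87130 CPM in controls (8 lower and 4 higher), and of 11 neuron genes 8 were lower and 1 higher. Early embryo genes summed to 29.3 to 33.2 CPM in ethanol at 4 h, against 99.6 to 128.2 CPM in controls, with 10 of 12 tested genes lower (13.4% of all genes were lower at that time). At 20 h the embryo sums were 34.3 to 39.1 CPM in ethanol and 89.3 to 131.6 CPM in controls. Of 21 oocyte and eggshell genes 1 was higher and 2 lower at 20 h, and of 19 general germ cell genes 1 and 1. Of 10 spermatheca and gonad sheath genes 3 were higher and 2 lower, with sums of 854.0 to 1002 CPM in ethanol and 896.9 to 1759 CPM in controls. Of 8 male soma genes listed 3 had enough reads to be tested (1 lower), and the list summed to 5.18 to 8.44 CPM in ethanol at 20 h, against 10.6 to 11.4 CPM in controls. CPM is a relative level, so a drop of other transcripts can raise it where TMM scaling does not offset that drop. The part of these shifts in the sperm gene result was not tested.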

How the data were processed

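Whole-worm polyadenylated RNA was sequenced with the Kapa mRNA HyperPrep kit, per the labels' protocols. The authors deposited 1 table of read counts per gene, with 22 columns that all matched a sample. Per the submitters' processing notes, the tools were STAR 2.7.9a, Trimmomatic 0.39, Subread 2.0.3 with featureCounts, and fastp 0.23.2, on genome build ce10. The sources used here name no annotation, strand setting or rule for multi-mapping reads, so counts of near-identical or overlapping genes are uncertain. The table pairs no coordinates with genes. Exon lengths, overlaps and neighbours came from the WBcel235 annotation by symbol, which matched 50 of the 52 sperm genes, and no coordinates are printed.

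Library totals of 10908205 to 15302047 counts limit precision for genes under about 1 CPM. Genes were kept by filterByExpr over 7 groups (minimum count 10, minimum total 15), which left 15310 genes with 99.94% of counts. A quasi-likelihood model of edgeR 4.0.16, run in R 4.3.3, with robust dispersions and TMM scaling, took all 22 libraries and gave each group a mean of its own. Its F-tests were two-sided. The threshold was a Benjamini-Hochberg adjusted p under 0.05. Differences of ethanol effects between times were contrasts of the same fit. SE was the log2 fold change divided by the square root of F, and CPM used TMM-scaled library sizes. The script was tested on simulated data. The labels speak of biological replicates and name no separate cultures, so the p-values rest on the spread among these libraries, which may be technical. No library repeated another of its group within sampling noise.

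Alternatives were DESeq2 1.42.0, DESeq2 size factors, library totals alone, no filter, a fit of the compared groups alone, a replicate block, a length trend taken out of each library, 1 library left out in turn, and the 6 libraries with scores above 10 on the first within-group axis left out.

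The sperm genes and all lists were chosen with earlier results of these data known. Named were a panel of genes by role (not all of which are reported here), the 2 most abundant ssp, ssq and nspd genes, and the 4 largest rises and falls in each comparison with 5 CPM in a group and 10 counts in each. The genes spe-5, spe-12, spe-15, spe-47 and ssp-37 were named after their values were seen where that rule did not take them. Intervals of count ratios cover counting error alone.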

Additional observations from a re-analysis of the deposited data

Results flagged for a closer look

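The ethanol effect on sperm genes differed between exposure times, by a test of the difference itself (edgeR contrasts of the effects, adjusted over all genes). It was called larger at 4 h than at 1 h in 16 of 48 genes, with log2 differences from 0.61 to 1.24, where 6.74% of all genes were. With 1 library left out that count was 8 to 16. It was called larger at 20 h than at 4 h in 38 genes, from 0.49 to 4.18, where 15.4% of all genes were. At 20 h against 1 h it was called larger in 40 genes, from 0.48 to 4.89, where 15.5% of all genes were. In 0 genes was it called smaller, against 6.40%, 16.9% and 20.2% of all genes in the same order. In the time zero group of 4 libraries, Dixon's Q test flagged a library in 0 of 48 genes. With 4 libraries this test flags only a very wide gap, and fer-1, with a 4.06-fold range, was not flagged.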

How the results depend on the processing

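Counts of members called kept their direction in ethanol against control at 4 and 20 h and in control against time zero at 4 and 20 h. With 1 library left out, ethanol over control gave 20 to 24 higher at 4 h and 40 to 43 at 20 h. Control against time zero gave 0 to 1 higher at 1 h, 38 to 42 lower at 4 h and 43 to 45 lower at 20 h. Ethanol against time zero gave 0 to 1 lower at 1 h, 0 to 1 higher and 10 to 16 lower at 4 h, and 1 higher and 36 to 39 lower at 20 h. The growth of the effect from 1 h to 4 h gave 8 to 16, from 4 h to 20 h 35 to 38, and from 1 h to 20 h 37 to 42.

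For ethanol against time zero, the number lower at 1 h was 0 with library totals alone, no filter, only the groups compared or the replicate block. It was 2 in DESeq2, 6 with the length trend taken out and 4 without the 6 high-scoring libraries. These last fits called 1858 of 15285, 1884 of 14922 and 2470 of 15387 genes in either direction. The number higher at 4 h was 0 with DESeq2 size factors, DESeq2, no filter or the block. The number lower at 4 h was 9 with library totals alone, 9 with the block and 31 with the length trend taken out. In these fits 5504 of 15310, 5021 of 15310 and 6373 of 14922 genes were called in either direction. At 20 h, 1 was higher with DESeq2 size factors, DESeq2, no filter, only the groups compared or the block. Ethanol against control at 1 h gave 3 lower without the 6 libraries, where 1550 of 15387 genes tested were called in either direction. Growth from 1 h to 4 h gave 8 with library totals alone, 9 with no filter, 10 with the block and 28 without the 6 libraries. The share of all genes called was not taken for growth under these settings. The causes were not tested.

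At 4 h the log2 fold change of spe-39 was -0.004 and turned to 0.0056 with library totals alone, 0.031 with only the groups compared and 0.014 with the length trend taken out, and ran from -0.067 to 0.043 with 1 library left out. That of spe-19 was 0.05 and turned to -0.0014 with the length trend taken out and ran from -0.22 to 0.41 with 1 library left out. With 1 to 4 counts in a group, as for spe-27, spe-19 and spe-12 in controls at 20 h, depth limits the size of a difference.

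Library totals alone moved the median of all genes at 20 h to 0.10 for ethanol over control and 0.22 for ethanol over time zero. Same-numbered ethanol and control libraries varied together at 1 h for replicates 1 and 2 (correlations of 0.603 and 0.621) and not for replicate 3 (-0.0685). The correlations were -0.0618, -0.0188 and -0.000813 at 4 h and -0.111, 0.185 and -0.36 at 20 h. The labels do not say what a replicate number marks, so the numbers were not taken to pair the libraries. These correlations do not decide whether they do, and a replicate block was run as an alternative.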
